A study of Drosophila melanogaster with 5 samples.

Results

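fax, rgn, vir-1 and fra are 4 of the 16495 genes counted in nuclei of Drosophila Malpighian tubules (MTs), the fly's renal organ. They were selected on measured values: they had the 4 highest log2 fold changes of PCts > Pvr act against PCts > w1118. Their levels in that comparison are therefore given below as a description. What was asked of them is whether nuclei of EGT > yki act flies that were annotated to the clusters named after Pvr activation, "(Pvr-act)", also held more of these transcripts.

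Pvr is the fly receptor tyrosine kinase of the PDGF/VEGF receptor family and signals through the Ras/MAPK (ERK) and JNK pathways. fax (failed axon connections) was found as a genetic partner of the Abl kinase in axon guidance. rgn (regeneration) encodes a protein with a C-type lectin domain and was named for its expression in regenerating imaginal discs. vir-1 (virus-induced RNA 1) is induced by viral infection in flies, with a part for JAK-STAT signaling, and fra (frazzled) encodes the Netrin receptor, the fly counterpart of DCC.

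Single-nucleus RNA sequencing was done on 1 library per genotype, each from 90 pairs of MTs of pooled female flies. EGT > w1118 carried esg-GAL4, tub-GAL80TS > UAS-GFP, and EGT > yki act carried the same with UAS-yki3SA, an active form of the growth regulator Yki. The paper uses EGT > yki act flies as a gut tumor model and proposes that Pvf1 from the tumor activates Pvr in the MTs. PCts > w1118 carried CG31272-GAL4, tub-GAL80TS > +, PCts > Pvr act carried UAS-Pvr act (a UAS-Pvr.lambda transgene) with that driver, and the library labelled PCts > Pvr RNAi carried UAS-Pvr RNAi with it. Flies were reared at 18 °C and moved to 29 °C, for 8 days according to one label and 5 days according to another.

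All 5 genotypes thus held a temperature-sensitive GAL80 and were warmed, and the controls differed from the other flies of their driver by the last transgene. esg-GAL4 is active in progenitor cells of the gut and also in the stem cells of the MT, so that MT nuclei of EGT > yki act can come from cells with the transgene and from cells without it. CG31272-GAL4 is active in principal cells (PCs). With 1 library each, a difference between genotypes cannot be told apart from a difference between preparations. No test across genotypes was made.

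In the BDGP6 assembly, with the gene models of Ensembl release 115, fax (FBgn0014163) lies at 3L:16402796-16411828 on the minus strand and vir-1 (FBgn0043841) at 2L:12403270-12423439 on the minus strand. No other annotated gene overlaps either of them. rgn (FBgn0261258) lies at 3L:21382501-21424416 on the plus strand. It overlaps 5 other annotated genes, of which 2 long noncoding RNA genes, lncRNA:CR45953 and lncRNA:CR45954, are on its own strand. fra (FBgn0011592) lies at 2R:12529053-12564184 on the plus strand and overlaps 2 genes of that strand, CG30056 and CG33752. Reads over those shared stretches could be assigned to either gene or dropped in counting, so the levels of rgn and fra carry this uncertainty.

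The libraries held 1969 to 9367 nuclei with a median of 1515.5 to 3889 UMIs (counted transcript molecules). The lowest nucleus of PCts > Pvr act had 500 UMIs, and that of the other libraries had 150 to 223. The 5 clusters with "(Pvr-act)" in their name held 8996 nuclei (96.0%) of PCts > Pvr act and 1004 (27.6%) of EGT > yki act. They held 142 (4.20%) of EGT > w1118, 4 of PCts > w1118 and 5 of the library labelled PCts > Pvr RNAi. Across libraries, 53 barcodes were shared by 2 nuclei each. The PC transcription factor ct was present in these clusters, at 40.3 UMIs per 10,000 in EGT > yki act and 58.8 in PCts > Pvr act. It does not mark PCs alone. It stood at 14.1 in renal stem cells (Pvr-act) of EGT > yki act and at 14.6 in renal stem cells of EGT > w1118. Uro, Vha55 and CG31272, the gene of the PC driver, are also on the list of PC markers, and their levels are not given here. The paper reports Uro and Vha55 as lower with Pvr act. The level of ct alone therefore does not settle which of these nuclei are PCs. In renal stem cells (Pvr-act) of EGT > yki act, the stem cell markers Dl and N were near 0, at 0.0228 and 0.0373, whereas in renal stem cells 2 (Pvr-act) they stood at 7.46 and 7.35. The stem cell label of the former cluster thus has little support in these nuclei, and the name is used here as deposited.

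A level below is the mean, over nuclei, of UMIs per 10,000 UMIs of the nucleus, and levels of different genes are not compared with each other. A log2 fold change is the log2 ratio of 2 such means after adding 1 to each, and past 1 or -1 it is counted. 95% intervals are given for log2 ratios of pooled UMIs (exact conditional binomial) and for shares of nuclei (Clopper-Pearson). They cover counting error only, and say nothing of the spread between flies.

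Pvr (FBgn0032006) itself stood at 4.28 in EGT > w1118, 4.08 in EGT > yki act, 4.30 in PCts > w1118, 27.0 in PCts > Pvr act and, for the library labelled PCts > Pvr RNAi, at 4.74. It was high in the activation library only, where transcripts of the gene and of the transgene cannot be told apart. With UAS-Pvr RNAi the mean level of Pvr differed from the control by a log2 fold change of 0.12, and by pooled UMIs it was lower, at -0.18 (-0.22 to -0.13). Within cell types Pvr was lower in 5 of 7, with 4 intervals below 0 and 0 above.

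fax stood at 0.380 in EGT > w1118, 2.83 in EGT > yki act, 0.341 in PCts > w1118, 24.3 in PCts > Pvr act, while the library labelled PCts > Pvr RNAi had 0.0470. With 1 added to each mean, the control libraries were within 0.04 log2 units of each other, and EGT > yki act lay between them and PCts > Pvr act. By pooled UMIs, EGT > w1118 stood at 0.31 (-0.01 to 0.63) log2 units against PCts > w1118. rgn, the member with the highest UMI counts, stood at 4.17, 15.0, 4.29, 93.5 and 2.36 in the same order. vir-1 stood at 0.356, 1.72, 0.123, 17.0 and 0.0423. It differed between the controls, with a pooled log2 ratio of 0.55 (0.26 to 0.85) for EGT > w1118 against PCts > w1118. For rgn that ratio was 0.10 (0.05 to 0.14). For fax, rgn and vir-1 the order of the libraries was the same at the top: PCts > Pvr act, then EGT > yki act.

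fra departed from this order. Its level was 0.0717 in EGT > w1118, 0.157 in EGT > yki act, 0.288 in PCts > w1118, 19.4 in PCts > Pvr act, while the library labelled PCts > Pvr RNAi had 0.156. EGT > yki act was above its own control and below PCts > w1118. Outside PCts > Pvr act the Netrin receptor was thus close to undetected, with 94 UMIs in 3380 nuclei of EGT > w1118 and 155 UMIs in 3640 nuclei of EGT > yki act.

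**Figure D1:**
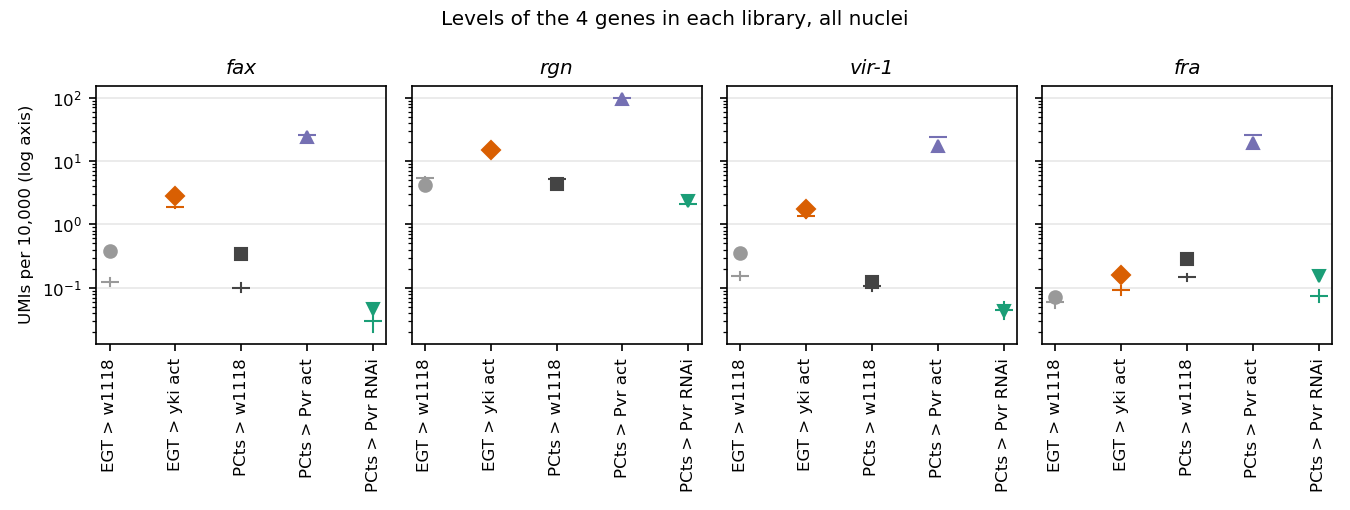
Levels of fax, rgn, vir-1 and fra in each library over all nuclei, in UMIs per 10,000 on a log axis. Symbols are means over nuclei, horizontal ticks are pooled levels and vertical lines their exact Poisson 95% intervals. fax, rgn and vir-1 of EGT > yki act sit between the controls and PCts > Pvr act, at 2.83, 15.0 and 1.72, and fra does not, at 0.157.

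Against PCts > w1118, the log2 fold changes in PCts > Pvr act were 4.24 for fax, 4.16 for rgn, 4.01 for vir-1 and 3.99 for fra, the values that chose the genes. Just outside the selection were Hsp23 and Hsp26, genes of small heat shock proteins, at 3.74 and 3.66. All 4 members are above 1 by construction, in a comparison in which 7.8% of 3989 genes were. A gene entered this ranking if 10% or more of the nuclei on one side held a UMI of it. PCts > w1118 had 148 UMIs of fax, 155 of vir-1 and 215 of fra in all, and 7568 of rgn. PCts > Pvr act had 99790, 94214, 101290 and 388845.

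Within PCts > Pvr act the members differed in where they were highest. Among the Pvr-act clusters, fax was highest in renal stem cells (Pvr-act), at 33.8, followed by lower segment PCs 2 (Pvr-act) at 28.0, and their pooled intervals did not overlap. rgn was highest in lower segment PCs (Pvr-act), at 156, against 69.3 in renal stem cells (Pvr-act) and 66.3 in lower tubule PCs (Pvr-act). vir-1 and fra were highest of these 5 clusters in lower tubule PCs (Pvr-act), at 27.7 and 37.2. fra was low in lower segment PCs 2 (Pvr-act), at 4.45, the cluster where fax came next to its highest value. The 4 genes therefore shared a library but not an order of cell types.

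The high levels were not limited to nuclei annotated to MT cell types. In PCts > Pvr act, nuclei annotated as adult tracheal cells (186 nuclei) stood at 15.1 for fax, 56.2 for rgn, 29.0 for vir-1 and 34.0 for fra. Visceral muscle (26 nuclei) stood at 14.0, 55.0, 13.0 and 7.55, and fat body (69 nuclei) at 7.21, 21.9, 19.6 and 5.71. In PCts > w1118 the tracheal nuclei stood at 6.99, 2.48, 1.32 and 0.0368. The PC factor ct was also higher in these nuclei, at 25.5 in tracheal nuclei and 24.9 in muscle nuclei of PCts > Pvr act, against 8.69 and 6.91 in PCts > w1118. Pvr stood at 18.9 and 9.28, against 0.871 and 0 in PCts > w1118. The tracheal markers btl and trh were lower in the tracheal nuclei of PCts > Pvr act, at 0.377 and 0.746, against 0.901 and 1.72 in PCts > w1118. In the Pvr-act clusters of PCts > Pvr act they stood at 0.0254 and 0.0186. The muscle marker Mhc was higher in the muscle nuclei, at 86.8 against 13.4. At 500 UMIs per nucleus, fra had a UMI in 37.4% (31.7 to 43.3) of the 281 nuclei of cell types outside the MT and in 45.8% (44.8 to 46.9) of those in the Pvr-act clusters. The median depth before thinning was 1497 and 2337.5 UMIs. What free RNA adds to these shares was not tested.

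Markers of hemocytes, the fly's blood cells, were also found with the members. The 4 listed markers Hml, NimC1, eater and Pxn summed to 4.36 in PCts > Pvr act and to between 0.00319 and 0.0358 in the other libraries, and Hml alone stood at 3.51. In PCts > Pvr act, 2187 nuclei (23.3%) held a UMI of at least 1 of them. The members were as high in the nuclei without such a UMI: 24.3 for fax, 97.0 for rgn, 17.2 for vir-1 and 19.97 for fra. In EGT > yki act 7 nuclei held one. The marker lists of neurons and glia were at 0.523 and 1.36 in PCts > Pvr act. Of their genes, brp and repo were near 0 in all libraries, so the glia level came mostly from moody, the other gene of that list.

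Against EGT > w1118, EGT > yki act had log2 fold changes of 1.63 for rgn, 1.47 for fax and 1.01 for vir-1, and of 0.11 for fra. The first 3 are above 1, in a comparison in which 1.92% of 3747 genes were. They ranked 14, 23 and 71 among those genes, and fra did not enter the ranking, being seen in 98 of 3640 and 83 of 3380 nuclei. fax and vir-1 entered it only through EGT > yki act, being seen in 20.5% and 17.7% of its nuclei. In EGT > w1118 those shares were 3.55% and 3.25%. Their entry thus depended on the group where they are high, and their ranks are a description. The pooled log2 ratios were 1.45 (1.42 to 1.49) for rgn, 3.90 (3.69 to 4.12) for fax, 3.12 (2.93 to 3.32) for vir-1 and 0.61 (0.23 to 0.99) for fra. vir-1 lies at the threshold, and it dropped below 1 when the shallowest or the deepest nuclei were left out, when nuclei were brought to equal depth, and when fold changes were centred on the median gene. With equal weight for each of the 12 cell types found in both libraries, none of the 4 was above 1, with rgn at -0.34, fax at 0.83 and vir-1 at 0.40. That setting also leaves out 977 of the 1004 Pvr-act nuclei of EGT > yki act, whose 4 clusters had too few nuclei in EGT > w1118.

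**Figure D2:**
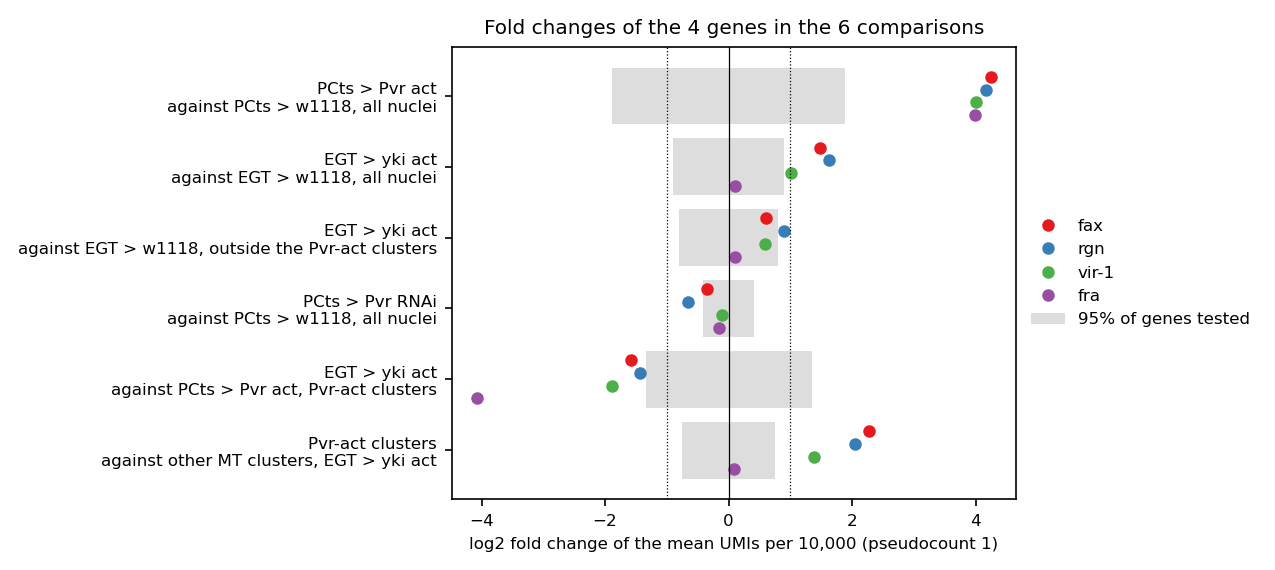
Log2 fold changes (pseudocount 1) of the 4 genes in the 6 comparisons. Grey bars hold 95% of the genes tested around 0, and dotted lines mark -1 and 1. In EGT > yki act over all nuclei, rgn (1.63), fax (1.47) and vir-1 (1.01) lie outside the grey bar and fra (0.11) inside. In the Pvr-act clusters fra is at -4.07 against PCts > Pvr act.

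Most of these transcripts came from the Pvr-act clusters. Those clusters held 24.9% of all UMIs of EGT > yki act, and 82.5% of its fax UMIs (2598 of 3148), 77.6% of vir-1 (1762 of 2271) and 61.2% of rgn (15642 of 25550). They held 36.8% of fra UMIs (57 of 155) and 18.1% of Pvr UMIs. When nuclei of the Pvr-act clusters were left out of both EGT libraries, the log2 fold changes were 0.89 for rgn, 0.61 for fax, 0.59 for vir-1 and 0.11 for fra. None was above 1, and 1.25% of 3767 genes were. With a pseudocount of 0.1, fax, rgn and vir-1 were above 1 there too.

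Within EGT > yki act, nuclei of the Pvr-act clusters stood at 7.67 for fax against 0.786 in the other MT clusters. This log2 fold change of 2.28 was the highest of 3738 genes. rgn stood at 34.6 against 7.61 (2.05, rank 3), vir-1 at 3.82 against 0.842 (1.39, rank 12), and fra at 0.215 against 0.138 (0.09). Thus 3 of the 4 members were above 1, where 1.15% of genes were. The clusters were formed on the expression of these same nuclei, together with those of PCts > Pvr act, so this contrast describes the clusters and tests nothing. The 142 nuclei of EGT > w1118 in these clusters, with a median of 444.5 UMIs, stood at 2.22 for fax, 17.7 for rgn, 2.06 for vir-1 and 0.493 for fra (3 UMIs). By pooled UMIs rgn was higher in these nuclei, at 70.9 (67.4 to 74.5), than in the Pvr-act clusters of EGT > yki act, at 36.95 (36.4 to 37.5), so that the order of the libraries for rgn depends on the measure. The pooled value of EGT > w1118 rested on few nuclei. Of its 1560 rgn UMIs in these clusters, 1008 lay in lower segment PCs (Pvr-act), which made up 0.266% of the library's nuclei. The 100 renal stem cells 2 (Pvr-act) among the 142 nuclei held 12.

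The 3 genes were spread unevenly over the 5 clusters of EGT > yki act. Lower tubule PCs (Pvr-act) stood at 7.20 for fax, 25.9 for rgn and 4.29 for vir-1, against 0.367, 7.48 and 0.237 in lower tubule PCs without the name. The pooled log2 ratios were 4.48 (3.99 to 5.01), 1.72 (1.63 to 1.81) and 4.32 (3.83 to 4.86). Lower segment PCs (Pvr-act) had the highest rgn level of any cell type in the library, at 65.6, and their vir-1 level was 1.39. Renal stem cells (Pvr-act) stood at 6.80 for fax, 20.7 for rgn and 5.35 for vir-1, against 1.23, 3.90 and 1.97 in 30 renal stem cells without the name. Those 30 nuclei held 2, 15 and 4 UMIs of the 3 genes, and Dl and N were at 0 in them. The 1592 renal stem cells of EGT > w1118 stood at 0.552 for Dl and 1.46 for N. As the 30 nuclei held 0.236% of the library's UMIs, a level of 0 neither backs nor refutes their label.

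The remaining 2 clusters were small and shallow. Renal stem cells 2 (Pvr-act), with 27 nuclei, stood at 2.998 for fax, 3.21 for rgn and 3.84 for vir-1 on 6, 7 and 6 UMIs. For rgn the pooled log2 ratio to renal stem cells without the name was 0.18 (-1.36 to 1.56). The fra level of that cluster, 2.80 on 6 UMIs, was close to that of lower ureter PCs, 2.89 on 32 UMIs, and these were the only cell types of EGT > yki act above 1 for fra. Lower segment PCs 2 (Pvr-act), with 24 nuclei, held 7 UMIs of fax, 9 of rgn, 1 of vir-1 and 0 of fra. There rgn was above the other PCs by its mean (10.4 against 7.82) and below them by pooled UMIs (-1.47, -2.60 to -0.55).

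**Figure D3:**
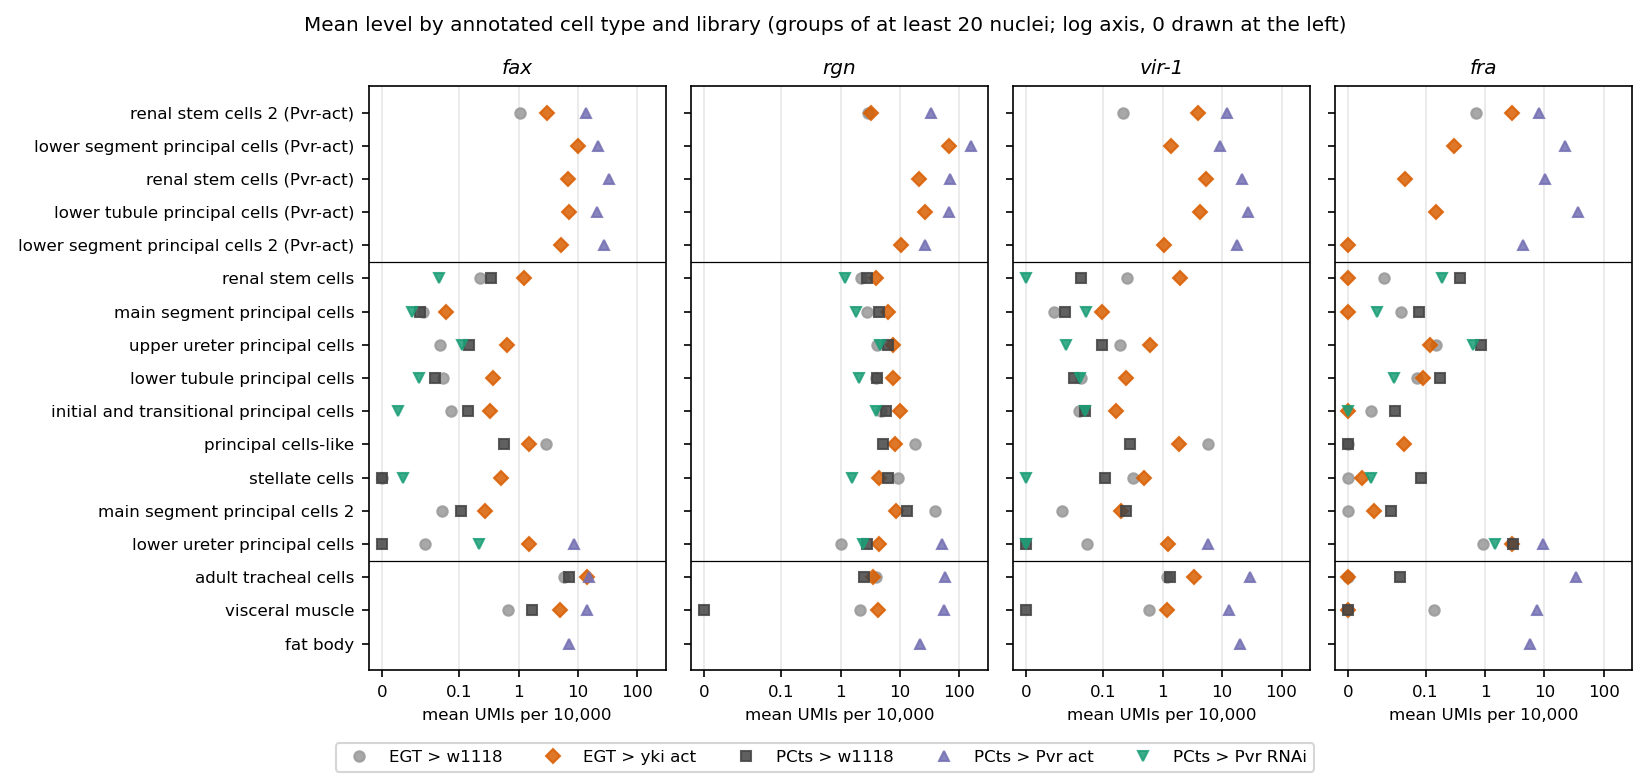
Mean UMIs per 10,000 of the 4 genes by deposited cell type (rows) and library (symbols), on a log axis with 0 drawn at the left, for groups of at least 20 nuclei. The 5 rows at the top are the Pvr-act clusters, the 3 at the bottom cell types outside the MT. In the Pvr-act rows, diamonds of EGT > yki act lie left of the triangles of PCts > Pvr act for each gene. For fra the diamonds lie below 1 in each row except renal stem cells 2 (Pvr-act), at 2.80, and lower ureter PCs, at 2.89.

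In the same clusters, EGT > yki act stayed below PCts > Pvr act for each member. The levels over all Pvr-act nuclei were 7.67 against 24.9 for fax, 34.6 against 95.4 for rgn, 3.82 against 16.9 for vir-1 and 0.215 against 19.4 for fra. The log2 fold changes were -1.58, -1.44, -1.89 and -4.07. All 4 were below -1, in a comparison in which 4.42% of 3691 genes were, and fra had the lowest value of all of them, on 57 UMIs against 99562. Pvr was at -2.73. The libraries also differ in driver, transgene and preparation, and these cannot be told apart. Since PCts > Pvr act values took part in choosing the members, these differences are given without support from them.

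Cluster by cluster, fra was lower in EGT > yki act by pooled log2 ratios of -8.03 (-8.53 to -7.56) in lower tubule PCs (Pvr-act), -7.66 (-8.62 to -6.86) in lower segment PCs (Pvr-act) and -7.95 (-10.99 to -6.09) in renal stem cells (Pvr-act). In renal stem cells 2 (Pvr-act) the ratio was -1.25 (-2.71 to -0.12). For rgn the ratios in the 3 large clusters lay between -1.52 and -1.24, for fax between -2.15 and -1.74, and for vir-1 between -2.93 and -2.08. The distance from PCts > Pvr act was thus smallest for rgn and greatest for fra in each of these 3 clusters.

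Single nuclei of EGT > yki act reached the levels of PCts > Pvr act in some cases. In lower tubule PCs (Pvr-act), where EGT > yki act was the deeper library (median 13627.5 UMIs against 5151), 10.0% of its 170 nuclei had fax at or above the median nucleus of PCts > Pvr act. The share was 8.24% for rgn, 7.65% for vir-1 and 0% for fra. The median nucleus there had 1.21 UMIs of fax per 10,000 and the nucleus at the 90th percentile 15.3, against 16.5 and 43.2 in PCts > Pvr act. The nuclei of the 2 libraries thus overlapped for fax, rgn and vir-1.

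At equal depth (500 UMIs drawn from each nucleus, shallower ones left out, 723 nuclei of EGT > yki act and 8996 of PCts > Pvr act), fax had a UMI in 26.1% (23.0 to 29.5) of Pvr-act nuclei of EGT > yki act and in 60.3% (59.3 to 61.4) of those of PCts > Pvr act. Without thinning the shares were 40.4% and 88.1%. For rgn the shares at equal depth were 62.7% (59.0 to 66.2) and 84.9% (84.1 to 85.6), for vir-1 12.6% (10.3 to 15.2) and 43.6% (42.6 to 44.6), and for fra 1.38% (0.665 to 2.53) and 45.8% (44.8 to 46.9). In the other MT clusters of EGT > yki act they were 2.84%, 26.6%, 3.15% and 0.586%. The interval of fra in the other MT clusters was 0.312 to 1.00. On all UMIs of these nuclei, fra had a pooled log2 ratio of 0.80 (0.30 to 1.28) between the Pvr-act and the other MT clusters of EGT > yki act, on 57 against 98 UMIs.

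The members were also counted together in single nuclei. At 500 UMIs, all 4 were seen in 1003 (11.1%) of the Pvr-act nuclei of PCts > Pvr act and in 0 of 723 of EGT > yki act, which allows a share of up to 0.415% (3 counts of the total) of nuclei with a UMI of each. fra alone was seen in 10 of those 723. At least 2 of fax, rgn and vir-1 were seen in 69.3% (68.3 to 70.3) of the former and 25.4% (22.3 to 28.8) of the latter. In the other MT clusters the share was 1.67% (1.18 to 2.29) in EGT > yki act and 0.386% (0.177 to 0.731) in EGT > w1118. Of the 142 nuclei of EGT > w1118 in the Pvr-act clusters, 53 were deep enough, and 10 of these (18.9%, 9.44 to 32.0) held at least 2 of the 3 genes. Control nuclei placed in these clusters thus carried the transcripts too.

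**Figure D4:**
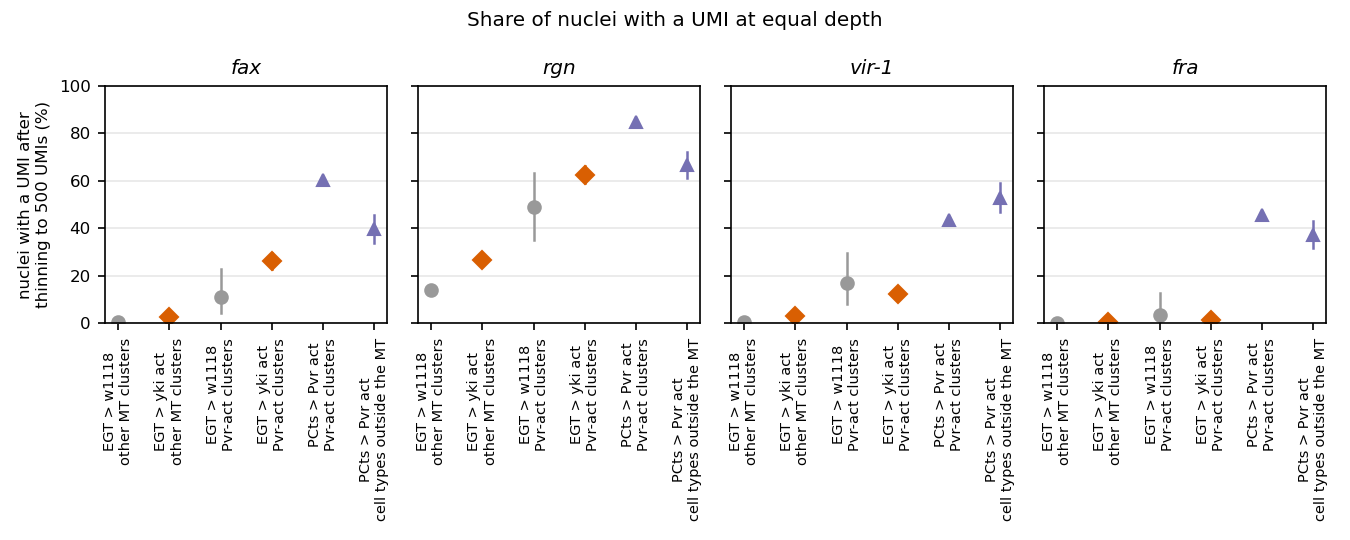
Share of nuclei with a UMI of each gene after thinning to 500 UMIs per nucleus, with Clopper-Pearson 95% intervals, for EGT > w1118, EGT > yki act and PCts > Pvr act and the named groups of clusters. For fax the shares of EGT > yki act are 2.84% in the other MT clusters and 26.1% in the Pvr-act clusters. For fra they are 0.586% and 1.38%, against 45.8% in PCts > Pvr act.

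Between the EGT libraries, fax and vir-1 were each higher with yki act in all but 1 cell type. Of the 12 cell types that held 20 or more nuclei of each, fax was higher in EGT > yki act in 11, with an interval above 0 in 9. Adult tracheal cells were among them, at 14.4 against 5.77, the highest mean of fax in either library, with an interval that overlaps the next cell type. vir-1 was higher in 11, with an interval above 0 in 6 and below 0 in 1, principal cells-like nuclei (1.88 against 5.71). In stellate cells EGT > yki act had 15 UMIs of fax and EGT > w1118 had 0.

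rgn was higher in 8 and lower in 4 of these cell types, with 4 intervals above and 3 below 0. It was higher in main segment PCs (6.31 against 2.74), lower tubule PCs (7.48 against 3.91), initial and transitional PCs (9.80 against 4.78) and lower ureter PCs (4.40 against 1.02). It was lower in main segment PCs 2 (8.52 in 325 nuclei against 38.8 in 36 nuclei), stellate cells (4.42 against 9.16) and principal cells-like nuclei (8.14 against 18.2). In PCts > w1118 the same cell types stood at 13.1, 6.21 and 5.12, so that EGT > w1118 was above both PCts > w1118 and EGT > yki act in each of them. For fra, 6 were higher and 5 lower, with 2 intervals above and 1 below 0. The 2 were renal stem cells 2 (Pvr-act) and lower ureter PCs (2.89 against 0.913).

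**Figure D5:**
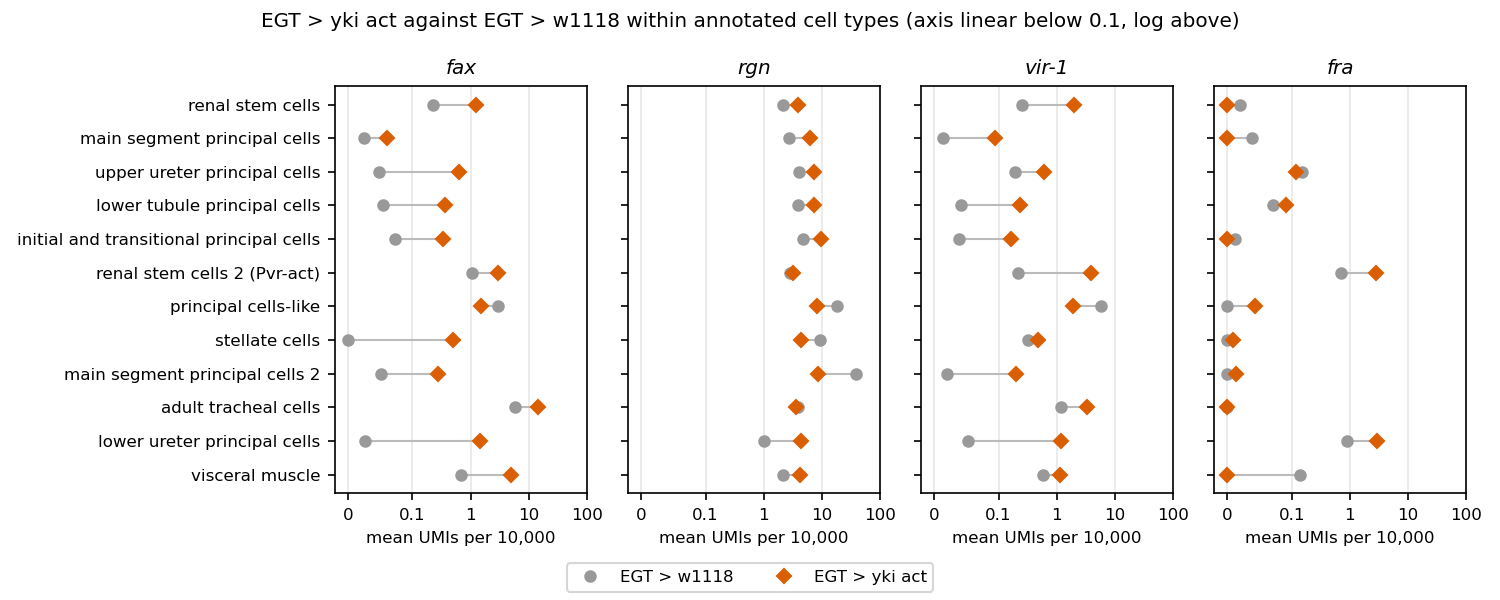
Mean UMIs per 10,000 in EGT > w1118 (circles) and EGT > yki act (diamonds) within each of the 12 cell types with 20 or more nuclei of each library. The axis is linear below 0.1 and logarithmic above. Diamonds are to the right for fax in 11 of 12 cell types. For rgn the widest gap runs the other way, in main segment PCs 2 (38.8 to 8.52).

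With UAS-Pvr RNAi, the members were below the control over all nuclei. The log2 fold changes against PCts > w1118 were -0.66 for rgn, -0.36 for fax, -0.16 for fra and -0.11 for vir-1. None was past 1 or -1, where 0.18% of 3889 genes were above 1 and 0.283% below -1, and of the 4 only rgn was seen in enough nuclei to be ranked. Its rank was 3851. This count rests on the pseudocount of 1: the pooled log2 ratios were -1.74 (-2.36 to -1.17) for fax, -1.27 (-1.34 to -1.20) for rgn, -1.22 (-1.74 to -0.74) for vir-1 and -0.96 (-1.36 to -0.57) for fra. rgn was lower in all 7 cell types that held 20 or more nuclei of each, with 6 intervals below 0. It went from 6.21 to 1.58 in stellate cells and from 4.47 to 1.81 in main segment PCs. fra was lower in all 7 too, with 3 intervals below 0. fax was lower in 5 and higher in 2, with 2 intervals below 0 and 1 above. vir-1 was higher in 3 and lower in 3, with 1 interval on each side of 0. Of the 155 vir-1 UMIs of PCts > w1118, 67 lay in lower tubule PCs (Pvr-act). In the other MT clusters, pooled vir-1 levels were 0.0381 with RNAi and 0.0410 in the control. Of the 148 fax UMIs of PCts > w1118, 38 lay in lower tubule PCs (Pvr-act) and 28 in adult tracheal cells. Pooled fax levels in the other MT clusters were 0.0240 (0.0154 to 0.0358) with RNAi and 0.0532 (0.0421 to 0.0664) in the control. This comparison shares its control with that of PCts > Pvr act, and the values of Pvr in the library are those given above.

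In the control libraries, over cell types of 20 or more nuclei, the members were highest in different places. fax was highest in adult tracheal cells, at 5.77 in EGT > w1118 and 6.99 in PCts > w1118, and below 0.4 in each PC type of either library other than principal cells-like nuclei. fra was highest in lower ureter PCs, at 0.913 and 2.92, apart from the next cell type only in PCts > w1118. rgn was highest in main segment PCs 2, at 38.8 and 13.1, apart from the next cell type by its interval in both libraries. vir-1 had no such place in common: it was highest in principal cells-like nuclei in EGT > w1118 (5.71 on 14 UMIs) and in adult tracheal cells in PCts > w1118 (1.32).

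Over the 55 groups of library and cell type with at least 20 nuclei, log2 levels of fax and vir-1 had a Pearson r of 0.91, and of 0.82 over the 46 groups without PCts > Pvr act. The groups of a library share its depth and preparation, so no p is given. rgn had an r of 0.70 with fax and 0.75 with vir-1, and of 0.33 and 0.42 without that library. fra had an r of 0.66 to 0.79 with the other members, and of -0.18 to 0.03 without that library. Its likeness to the others rested on PCts > Pvr act.

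The genes most like each member were ranked over all 55 groups, which hold the values that chose the members. The genes most like fax were Tsp42El, a tetraspanin gene (r 0.93), bero (0.91), vir-1 (0.91), Arc1, a capsid-forming homolog of mammalian Arc (0.89), and cib, a gene of an actin-binding beta-thymosin protein (0.87). bero had a level of 5.43 with yki act against 0.467 without, and Arc1 of 4.79 against 1.08. Without PCts > Pvr act these 5 had an r of 0.70 to 0.86 with fax. Most like rgn were the integrin beta subunit gene mys (0.86), CG46339 (0.85), the annexin gene AnxB9 (0.85), the filamin gene cher (0.85) and the ETS factor gene Ets21C (0.84). Without that library their r was 0.64 to 0.76. Most like vir-1 were AttD, an antibacterial peptide gene (0.93), Tsp42El (0.92), CG44325 (0.91), CG33494 (0.91) and fax (0.91). Without that library CG44325 and CG33494 dropped to 0.60 and 0.58, and the other 3 had an r of 0.80 to 0.89.

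Most like fra were the proprotein convertase gene Fur2 (0.92), CG42795 (0.91), CG8086 (0.90), the antibacterial peptide gene AttB (0.90) and Tig, the gene of the matrix protein Tiggrin (0.88). Without PCts > Pvr act the r of CG42795, AttB and Tig with fra was -0.04, -0.01 and -0.08. None of the 5 was higher in EGT > yki act than in EGT > w1118 by more than 0.04 log2 units. Their levels were at most 0.0832 in these libraries, however, and with 1 added to each, values so low stay near 0. CG8086 stood at 0.0665 against 0.0400. AttB stood at 4.05 in PCts > Pvr act and at 0.00264 in EGT > yki act.

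Related genes were counted by lists around each member. Of 14 axon guidance genes of the Netrin receptor and Abl, 9 were seen in at least 10% of nuclei of PCts > Pvr act or its control. 3 of these were above 1: the cell adhesion gene Nrg (3.30), the actin regulator ena (1.67), an antagonist of Abl, and the kinase gene Pak (1.30). The median of the 9 was 0.17, against -0.01 over all genes tested, of which 7.8% were above 1. Against EGT > w1118, Nrg alone of the 9 seen was above 1 in EGT > yki act (1.48), with a median of 0.03, as over all genes.

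Of 17 genes of JNK signaling, wound response and regeneration, 15 were seen in the comparison of PCts > Pvr act with its control. Between the 2 control libraries 10 were seen, so some of the 15 passed the filter only through nuclei of PCts > Pvr act. That entry can itself raise the median and the count. The median of the 15 was 1.03, against -0.01 over all genes tested. Of the 15, 9 were above 1, where 7.8% of all genes tested were. Among them were the metalloprotease gene Mmp2 (2.81), its inhibitor Timp (3.39), the JNK phosphatase gene puc (1.08), the AP-1 subunit gene kay (1.70), Ets21C (1.41), Gadd45 (1.01), the cell death genes rpr (1.81) and hid (1.35), and the cytokine gene upd3 (1.03). For yki act 10 were seen, a different set from those 15. None of the 10 was above 1, and their median was 0.35, against 0.03 over all genes, while rgn itself was at 1.63. The paper reports kay, Jra and puc as raised in the MTs of yki act flies, also by qPCR, with more phosphorylated JNK. A count past 1 over all nuclei can miss smaller rises and rises in some cell types.

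Of 19 JAK-STAT and antiviral genes, 9 were seen in the Pvr act comparison, with a median of 0.37, and 4 were above 1, where 7.8% of all genes were: the feedback inhibitor Socs36E (2.94), the receptor gene dome (1.07), upd3 (1.03) and the phosphatase gene Ptp61F (1.01). Listericin, seen in fewer than 10% of nuclei, was at 1.04. For yki act 7 were seen, with a median of 0.35, and 2 were above 1, where 1.92% of all genes were: Nazo (1.99), an antiviral gene downstream of Sting, and Socs36E (1.13). Nazo also differed between the controls, with a level of 0.224 in EGT > w1118 and 2.50 in PCts > w1118. Of 17 C-type lectin genes, 3 were seen in the Pvr act comparison and 0 were above 1, while lectin-37Da was at -1.43. Its level was 1.76 in PCts > w1118 and 0.0414 in EGT > w1118, so that it too differed between the controls. Of Pvr and its 3 ligands, Pvr (2.40), Pvf3 (1.67) and Pvf2 (1.29) were above 1 in PCts > Pvr act and none in EGT > yki act. Between the controls 2 of these 4 were seen, and 8 of the JAK-STAT list, so here too some genes entered only through PCts > Pvr act.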

How the data were processed

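Nuclei of dissected MTs were sorted and sequenced with the 10x Genomics 3' kit. The authors counted UMIs with Cell Ranger 7.0.0 on BDGP6, per the submitters' processing notes, normalized and scaled them in Seurat, and used Harmony for batch correction ahead of clustering. Filters on nuclei and removal of doublets are not given in the sources used here. The deposited matrix is on a natural log scale (of UMIs per 10,000 plus 1) and covers 16495 genes in 21371 nuclei, with a library and a cell type for each nucleus. In 100% of nuclei these values gave whole UMIs within 1e-06.

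Symbols came from Ensembl release 115 for 16447 identifiers, and 48 did not match. Depth was 150 to 123301 UMIs per nucleus and 10018765 to 39154127 per library. Log2 fold changes used a pseudocount of 1, and a gene was ranked if 10% or more of the nuclei of one group held it. Each cell type needed 20 nuclei. The floor for a count of 0 was 3 counts.

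The members, the gene lists and the comparisons were chosen with earlier results of these data known. Named are the members, Pvr, the next 2 genes of the ranking, the 5 genes most like each member and list genes past 1 or -1 in the Pvr act or yki act comparison. brp, repo, moody, Dl, N, ct, Uro, Vha55, CG31272, btl, trh, Mhc and the hemocyte genes are markers fixed as lists.

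Alternatives were a pseudocount of 0.1, pooled UMIs, centring on the median gene, leaving out the 25% shallowest or 5% deepest nuclei, MT cell types only, equal weight per cell type, thinning to 500 UMIs, the other control library and other filters on genes. Keeping nuclei with at least 500 UMIs, leaving out the shallow Pvr-act clusters and leaving out nuclei with hemocyte UMIs were chosen after seeing the data. The calculations were tested on simulated data. Software was Python 3.11.15 with scipy 1.17.1 and numpy 2.4.6.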

Additional observations from a re-analysis of the deposited data

Results flagged for a closer look

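In EGT > yki act against EGT > w1118, rgn and vir-1 moved in opposite directions in different cell types by more than 1 on the log2 scale, with pooled intervals on either side of 0. The log2 fold change of rgn was 1.42 in lower ureter PCs (41 against 16 UMIs), -1.07 in principal cells-like nuclei (416 against 46) and -2.06 in main segment PCs 2 (3522 against 1834). That of vir-1 was 1.25 in renal stem cells (4 against 37 UMIs, in 30 and 1592 nuclei), 1.996 in renal stem cells 2 (Pvr-act) (6 against 1), 1.07 in lower ureter PCs (11 against 1) and -1.22 in principal cells-like nuclei (83 against 14). The difference between cell types was not tested, since each library is 1 sample. EGT > w1118 held 36 main segment PCs 2 and 32 principal cells-like nuclei.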

How the results depend on the processing

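Of 59 recomputed counts of members, 57 stayed within 1.5 times the value reported. With equal weight for each cell type, 0 in place of 3 members were above 1 in EGT > yki act over all nuclei, and rgn was at -0.34. This setting also leaves out 4 of the 5 Pvr-act clusters, and leaving out all 5 alone gave 0 as well. Outside those clusters equal weight put rgn at -0.36 in place of 0.89. With a pseudocount of 0.1, 3 in place of 0 were above 1 outside the Pvr-act clusters. In EGT > yki act over all nuclei 2 members, rgn and fax, were above 1 under 5 further settings. In PCts > Pvr act, and in the Pvr-act clusters against it, the count of 4 held under every setting, including without nuclei with hemocyte UMIs. The log2 fold change of fax in PCts > Pvr act ranged from 1.80 to 5.79, lowest with equal weight for 3 cell types. Of 236 recomputed log2 fold changes, 84 moved by more than counting error and 1 called value reversed. In all 5 had the opposite sign, the 2 of rgn just given and 3 of fra with the other control library (-0.15, -0.18 and 0.11). Among genes seen in 25% of nuclei the share past the fold was 12.9% in PCts > Pvr act and 3.49% in EGT > yki act, and among all genes with a UMI 2.18% and 0.553%. With 1 library per genotype, the spread between flies is unknown. fra was too sparse outside PCts > Pvr act for differences within most cell types to be detected.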
